A study of Homo sapiens with 18 samples.

Results

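MHC class II genes and CIITA, the regulator that switches them on, were followed as 10 genes in 18 RNA-seq libraries of human multiple myeloma cell lines. The members were CIITA, CD74, HLA-DRA, HLA-DRB1, HLA-DPA1, HLA-DPB1, HLA-DQA1, HLA-DMA, HLA-DMB and HLA-DOA. They were chosen by symbol, and all 10 were found among the 62703 genes of the deposited tables. The study treated AMO1, H929 and LP1 cells for 48 h with 5 µM of an LNA-gapmeR, a short antisense oligonucleotide that enters cells without a carrier and directs cleavage of the RNA it pairs with. The gapmeR was either g#N1_E against the long non-coding RNA NEAT1 (label gN1E) or the scrambled g#SCR (label SCR), and each line had 3 libraries under each label. The lines are long-established plasma cell tumour cultures. Total RNA was sequenced as stranded libraries with paired reads of 150 bases, and the authors deposited raw read counts per gene.

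MHC class II molecules present peptides from the endosome to CD4+ T cells. Each is a pair of an alpha and a beta chain that assembles with the invariant chain CD74, after which HLA-DM exchanges the last piece of CD74 for a peptide and HLA-DO restrains HLA-DM. CIITA does not bind DNA itself but docks onto the RFX, CREB and NF-Y proteins that sit on the X and Y boxes upstream of these genes. B cells express the pathway, and plasma cells normally lose it when PRDM1 (BLIMP1) shuts off CIITA, whereas interferon gamma can restart CIITA through its receptor, JAK kinases and IRF1.

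The X and Y boxes are shown because they are the letters on which CIITA's partners assemble, and because the members differed between the lines together. RefSeq promoter sequences (GRCh38.p14) were searched on both strands over the 250 bases before each RefSeq start site. The patterns were CNAG and CNGA with 3 bases of any kind between them, taken as X-like, and GATTGG, taken as Y-like. These patterns were written after reading the promoters of the class II genes, so their matches there are a description. An X-like match was in 13.8% of the 35116 windows and a Y-like match in 14.1%. X followed by Y, with 25 to 40 bases between their starts and in the same orientation, was in 22 windows (0.0626%), of which 7 belonged to class II genes. In the 7 stretches below, which run 5′ to 3′ on the gene's strand, capitals mark the X-like and, where present, the Y-like letters. HLA-DOB, a class II gene that is not a member, is added because its level differed least between the lines.
HLA-DRB1: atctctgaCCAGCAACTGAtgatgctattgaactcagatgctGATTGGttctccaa
HLA-DMA: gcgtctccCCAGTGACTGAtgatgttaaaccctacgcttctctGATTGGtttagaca
HLA-DOA: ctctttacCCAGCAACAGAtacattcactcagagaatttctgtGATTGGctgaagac
HLA-DOB: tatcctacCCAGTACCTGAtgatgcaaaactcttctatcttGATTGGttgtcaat
HLA-DMB: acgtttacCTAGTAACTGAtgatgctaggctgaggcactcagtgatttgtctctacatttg
HLA-DQA1: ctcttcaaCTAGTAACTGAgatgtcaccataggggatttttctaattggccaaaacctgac
HLA-DPA1: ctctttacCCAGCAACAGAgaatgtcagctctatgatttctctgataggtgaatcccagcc

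The stretches lie at chr6:32589882-32589937 (minus strand) for HLA-DRB1, chr6:32953164-32953220 (minus) for HLA-DMA, chr6:33009646-33009702 (minus) for HLA-DOA and chr6:32817088-32817142 (minus) for HLA-DOB. Those of HLA-DMB (chr6:32941066-32941126, minus), HLA-DQA1 (chr6:32637294-32637354, plus) and HLA-DPA1 (chr6:33073698-33073758, minus) hold the X-like letters only, and for HLA-DPA1 this is the second of 2 start sites. The starts of X and Y were 34 bases apart in HLA-DRB1, 35 in HLA-DMA and HLA-DOA and 33 in HLA-DOB. Neither pattern was found in the gene's orientation in the windows of CD74 and HLA-DPB1. CIITA and HLA-DRA were not matched to a promoter entry. The stretches of HLA-DMA, HLA-DQA1, HLA-DPA1 and HLA-DOB lie inside the spans of these genes as counted, whose annotation begins further upstream.

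The labels were checked before levels were read. NEAT1 should fall with its gapmeR, but it was high in every library labelled gN1E. Its level was 473, 553 and 517 CPM (counts per 1000000, with TMM-scaled library sizes) against 75.7, 78.7 and 90.8 under SCR in AMO1, 554, 464 and 542 against 79.8, 72.7 and 79.1 in H929, and 655, 667 and 828 against 135, 173 and 189 in LP1. The names inside the deposited tables exchange the gapmeR in all 18 libraries and the lines H929 and LP1 in 12, so every library is called here by its sample label, and "high NEAT1" means the libraries labelled gN1E. Plasma cell markers summed to at least 11209 CPM in every library, with all 9 at 1 CPM or more, and the B cell markers PAX5 and CD22 were at 0 under AMO1 while the B cell list never summed above 4.30 CPM. Total counts per library ran from 28061606 to 69937229. They were lower under gN1E than under SCR in AMO1 (28061606 to 49784737 against 53227560 to 66142827). Nothing in the labels says whether the libraries came from separate cultures, so p-values measure the spread between these libraries.

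A myeloma clone usually carries a single rearranged heavy chain and light chain, so V segments identify it. The libraries labelled AMO1 held IGHV3-23 at 1826 ± 229 CPM (library size only; SD, n = 6) and IGKV3-20 at 1605 ± 244. Those labelled H929 held the same segments at 1624 ± 414 and 1345 ± 309 CPM together with IGLV3-21 at 1143 ± 72.8, a segment with 3 counts in all under AMO1. Those labelled LP1 had 0 counts of IGHV3-23, and their leading light chain segment was IGKV3-15 (1524 ± 121 CPM). IGKV3-15 was also seen under AMO1 (10.6 ± 11.4 CPM) and H929 (6.54 ± 9.77 CPM). The leading heavy chain segment under LP1, IGHV1OR21-1, had only 0.56 CPM. Of 9576 genes at 10 CPM or more under AMO1, 0 were at 2% of that level or less under H929, against 186 under LP1. In the other direction, 63 of 9636 genes at that level under H929 were at 2% or less under AMO1. The member levels under the H929 label therefore come from libraries that hold the V segments of AMO1, and the part this plays in them was not tested.

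All 10 members were highest under AMO1, lower under H929 and lowest under LP1, with no overlap between the 6 libraries of a line and those of the next. In bulk RNA, fewer cells that express a gene and less RNA per cell cannot be told apart. CIITA (ENSG00000179583.21, chr16:10866222-10943021 of hg38, plus strand), the coactivator, stood at 250, 254 and 285 CPM in the AMO1 libraries labelled SCR and at 271, 245 and 252 in those labelled gN1E. Under H929 it was 183, 179 and 183 CPM with SCR and 181, 186 and 193 with gN1E. Under LP1 it was 6.22, 6.95 and 5.57 CPM with SCR and 5.58, 5.35 and 5.67 with gN1E, from 220 to 402 counts per library. CIITA was thus low but clearly detected in all 6 LP1 libraries. The line means were 259 ± 15.3, 184 ± 4.80 and 5.89 ± 0.60 CPM (SD, n = 6).

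CD74 (ENSG00000019582.17, chr5:150401637-150412969, minus strand), the invariant chain that guides class II molecules to the endosome, was the member with the most reads. It had 2672, 2047 and 2435 CPM in AMO1 SCR and 2450, 1972 and 2228 in AMO1 gN1E libraries. In H929 it had 1353, 1651 and 1151 CPM with SCR and 1673, 1537 and 1524 with gN1E. In LP1 it had 1.11, 1.23 and 0.70 CPM with SCR and 0.43, 1.14 and 0.67 with gN1E, which is 23 to 71 counts. CD74 also spread more than the other highly expressed members among the H929 libraries, at 1481 ± 198 CPM against 425 ± 18.9 for HLA-DRA (SD, n = 6).

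HLA-DRA (ENSG00000204287.14, chr6:32439878-32445046, plus strand), the nearly invariant alpha chain of HLA-DR, had 633, 637 and 597 CPM in AMO1 SCR and 640, 646 and 677 in AMO1 gN1E libraries. With H929 labels the values were 424, 449 and 405 for SCR and 406, 446 and 422 for gN1E. LP1 libraries had 0.84, 1.24 and 0.72 with SCR and 0.76, 0.996 and 0.48 with gN1E. Its beta chain HLA-DRB1 (ENSG00000196126.12, chr6:32577902-32589848, minus strand) ranged from 201 to 221 CPM under AMO1, 101 to 121 under H929 and 0.28 to 0.74 under LP1. HLA-DRB1 is highly variable between people and resembles HLA-DRB5, so its reads may map unevenly and its level is uncertain.

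Among the HLA-DP and HLA-DQ chains, HLA-DPA1 (ENSG00000231389.8, chr6:33064569-33080775, minus strand) had 235 ± 11.7, 152 ± 9.65 and 0.73 ± 0.12 CPM and HLA-DPB1 (ENSG00000223865.11, chr6:33075990-33089696, plus strand) 89.4 ± 4.07, 57.4 ± 2.97 and 0.20 ± 0.07 CPM under AMO1, H929 and LP1 (SD, n = 6). HLA-DPA1 and HLA-DPB1 overlap on opposite strands, and the authors counted by strand. HLA-DQA1 (ENSG00000196735.13, chr6:32628179-32647062, plus strand), another polymorphic chain with a close copy in HLA-DQA2, had 135, 132 and 134 CPM in AMO1 SCR and 130, 128 and 139 in AMO1 gN1E libraries. It had 66.1, 68.7 and 62.4 CPM in H929 SCR and 63.0, 61.6 and 62.7 in H929 gN1E libraries, and 1 to 13 counts per LP1 library.

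The genes of the peptide editors were likewise highest under AMO1 and lowest under LP1. HLA-DMA (ENSG00000204257.15, chr6:32948613-32969094, minus strand), the alpha chain of HLA-DM, had 62.2 ± 3.08, 47.8 ± 4.13 and 1.89 ± 0.25 CPM under AMO1, H929 and LP1 (SD, n = 6), and its 71 to 142 counts per LP1 library were the most after CIITA. HLA-DMB (ENSG00000242574.9, chr6:32934629-32941028, minus strand), the beta chain, had 11.5 ± 1.25, 6.97 ± 0.44 and 0.07 ± 0.06 CPM, with 0 to 6 counts per LP1 library. Read pairs in the 6.35% of HLA-DMA and 9.49% of HLA-DMB exon bases shared with a readthrough gene on the same strand were ambiguous and not counted, and 10.5% of CIITA's exon bases are likewise shared with another annotated gene on its strand. HLA-DOA (ENSG00000204252.14, chr6:33004182-33009591, minus strand), the alpha chain of the inhibitor HLA-DO, had 68.9, 64.6 and 62.7 CPM in AMO1 SCR, 64.4, 65.1 and 62.05 in AMO1 gN1E, 39.0, 41.6 and 39.7 in H929 SCR and 36.5, 38.5 and 36.9 in H929 gN1E libraries. It had 1 count in the 6 LP1 libraries together.

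**Figure D1:**
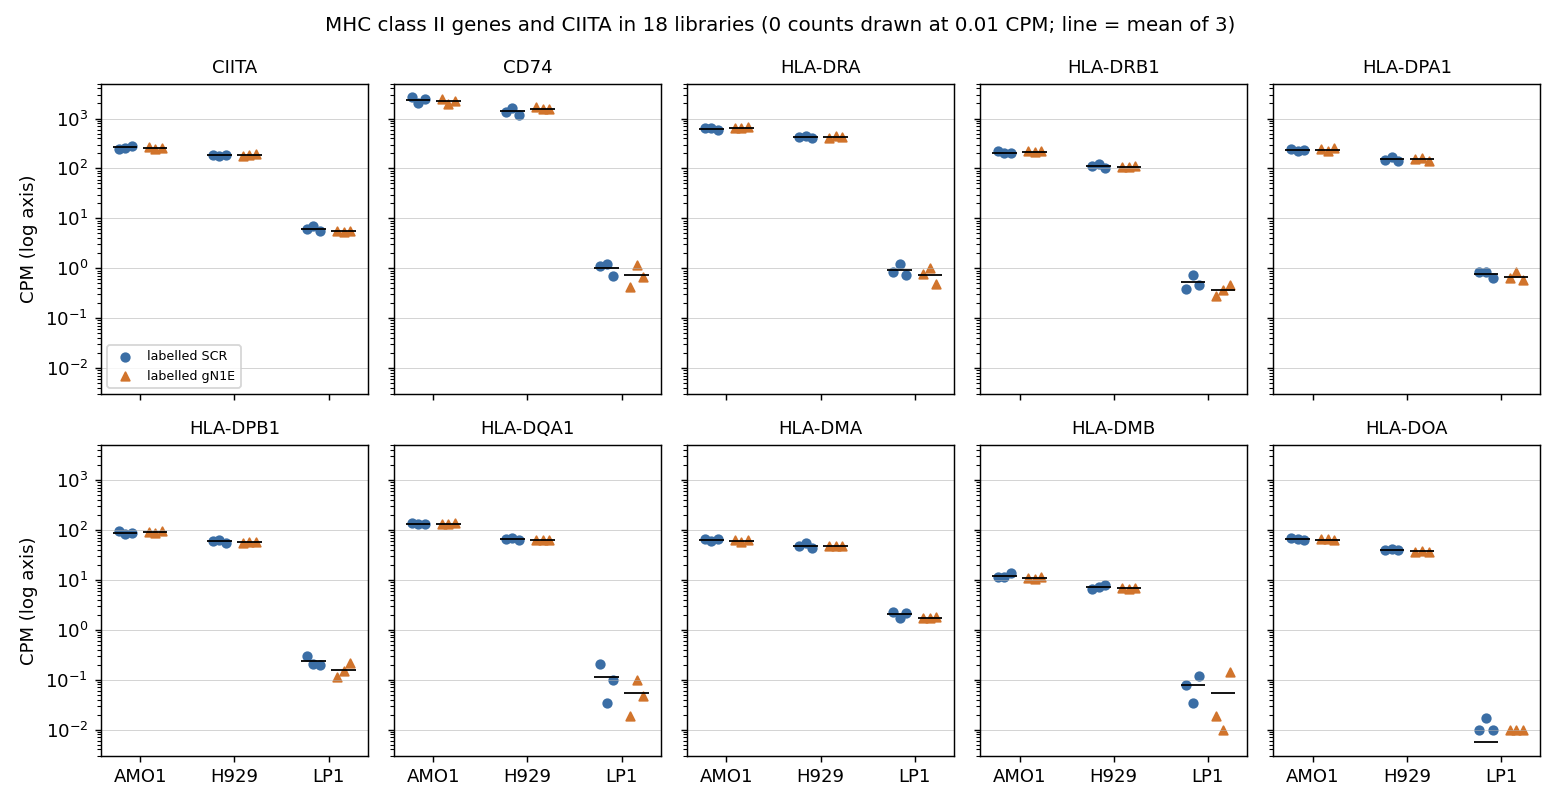
CPM of the 10 members (log axis, TMM-scaled library sizes) in each library by line label, with circles for SCR, triangles for gN1E, a line at the mean of 3 libraries and 0 counts drawn at 0.01 CPM. Every member falls from AMO1 to H929 to LP1, and the circles and triangles lie close together under AMO1 and H929, as for CIITA at 250 to 285 and 245 to 271 CPM in AMO1, but spread widely under LP1 where counts are few, as for HLA-DQA1 at 0.019 to 0.21 CPM.

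Levels of different genes were compared per kilobase of exon. Under AMO1, HLA-DRA (513 ± 20.8 CPM per kb) and CD74 (508 ± 58.9) came first and overlapped. They were followed by HLA-DRB1 (69.1 ± 3.04), HLA-DPA1 (40.9 ± 2.04), HLA-DMA (24.7 ± 1.22), HLA-DQA1 (19.3 ± 0.55), HLA-DPB1 (17.1 ± 0.78), HLA-DOA (16.2 ± 0.61), CIITA (11.5 ± 0.68) and HLA-DMB (2.49 ± 0.27; SD, n = 6). HLA-DPB1 and HLA-DOA also overlapped, and the other neighbours in this order did not. Exon length is the union over all annotated transcripts, 22553 bases for CIITA, so the level of a gene that uses few of these bases is understated. The order under H929 was the same except that HLA-DQA1 (9.31 ± 0.40 CPM per kb) lay below HLA-DOA (9.70 ± 0.47), with which it overlapped. Under LP1 it was different: HLA-DMA (0.75 ± 0.10 CPM per kb) and HLA-DRA (0.68 ± 0.21) overlapped at the top and were followed by CIITA (0.26 ± 0.03) and CD74 (0.19 ± 0.07), which overlapped as well.

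Set against AMO1, the members did not differ by a single factor under LP1. HLA-DMA was at 3.04% of its AMO1 mean (95% interval 2.81% to 3.31%) and CIITA at 2.27% (2.18% to 2.39%). HLA-DMB stood at 0.57% (0.34% to 0.86%), HLA-DPA1 at 0.31%, HLA-DPB1 at 0.22%, HLA-DRB1 at 0.21%, HLA-DRA at 0.13%, HLA-DQA1 at 0.063% (0.043% to 0.096%) and CD74 at 0.038% (0.034% to 0.043%). HLA-DOA, with its single count, was at 0.0045% (0.00013% to 0.028%). The intervals are exact binomial intervals of the summed counts and cover counting error only. CIITA was therefore 44.1-fold and CD74 2616-fold lower than under AMO1. The 0 counts of IGHV3-23 under LP1 allow at most 0.00050% of its AMO1 level (3 counts), and IGKV3-20, with 17 counts, was at 0.0032%. The intervals of 9 of the 10 members lay wholly above both values, HLA-DOA being the exception. The source of the members' reads under LP1 was not tested.

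In edgeR's quasi-likelihood test, all 10 members were higher under AMO1 than LP1, with log2 differences from 5.04 (HLA-DMA, standard error 0.07) over 5.46 (CIITA, standard error 0.05) to 11.4 (CD74, standard error 0.19), and the largest adjusted p was 9.3e-16. This leaves out the fitted value of HLA-DOA, which rests on 1 count under LP1. So many genes separate these lines, 75.9% of the 26436 tested in either direction and 37.9% in each, that the call alone says little. H929 and LP1 likewise differed in 74.6% of genes, with 38.4% higher and 36.2% lower under H929, and all 10 members were higher. These splits of all genes rest on the scaling: with library size only, 11796 were higher and 8516 lower under AMO1 than LP1, in place of 10031 and 10023, and 12092 higher and 7833 lower under H929 than LP1, in place of 10160 and 9572. HLA-DMB and HLA-DOA, with 0 to 6 counts per LP1 library, passed the filter only through the other lines, so their calls against LP1 were favoured by it.

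Between AMO1 and H929 the difference was smaller but was called for all 10 members, against 44.4% of all genes in either direction and 21.2% as higher under AMO1. HLA-DQA1 was at 48.1% of the AMO1 mean under H929, with a log2 difference of 1.05 (standard error 0.05, adjusted p = 2.2e-19, edgeR), and HLA-DRB1 at 51.4%, with 0.96 (standard error 0.05, adjusted p = 7.5e-17). HLA-DMA, at 76.9%, differed least, by 0.38 (standard error 0.05, adjusted p = 1.5e-07). CIITA was at 71.0%, with a log2 difference of 0.49 (standard error 0.04, adjusted p = 1.9e-12). At an adjusted p of 0.1 with at least 1.5-fold, a threshold added after seeing the data, 7 of the 10 were called against 19.2% of all genes, without CIITA, HLA-DMA and HLA-DRA (0.58, just under that fold). Among the 9576 genes at 10 CPM or more under AMO1, 0.74% had a lower share of the AMO1 level than HLA-DQA1, 6.14% a lower share than CIITA and 10.4% a lower share than HLA-DMA (library size only). Among the 158 other genes that were at 10 CPM or more under AMO1 and at 2% of that or less under LP1 (TMM scaling), 37.3% were at 40% to 80% of the AMO1 level under H929, with a lower quartile of 68.3% and a median of 85.4%.

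**Figure D2:**
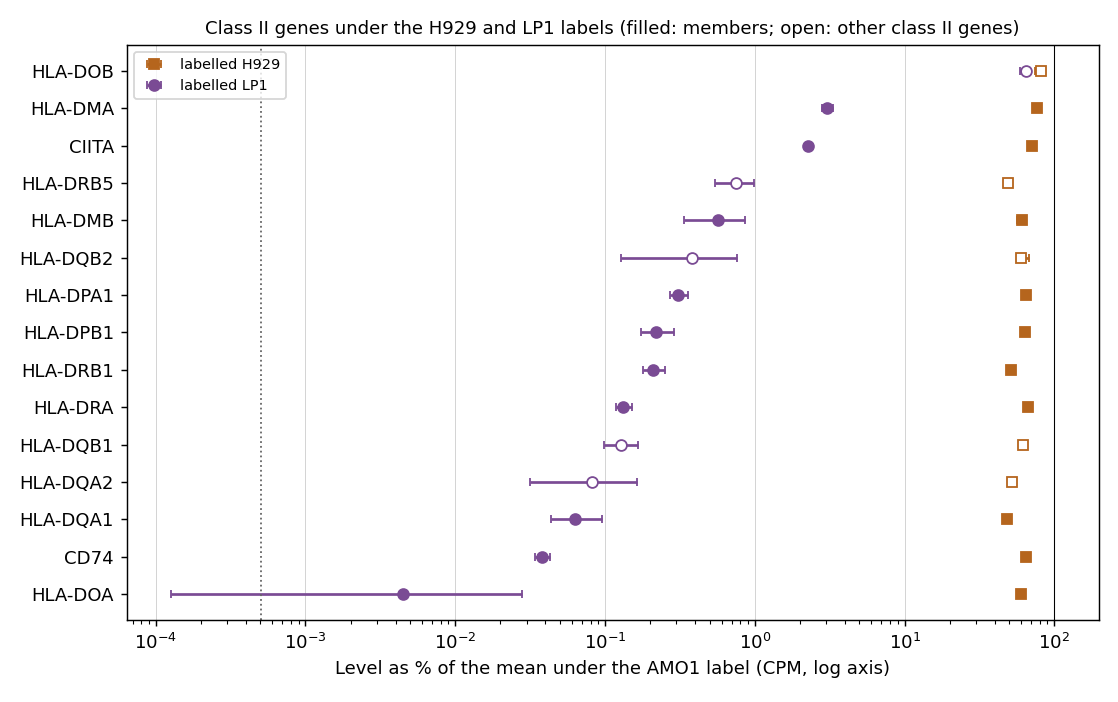
Level under the H929 label (squares) and the LP1 label (circles) as a percentage of the AMO1 mean on a log axis, for the members (filled) and the 5 other class II genes (open), with 95% counting intervals and a dotted line at the 0.00050% that 0 counts of IGHV3-23 allow. Members lie between 48.1% and 76.9% under H929 and between 0.0045% and 3.04% under LP1, while HLA-DOB stays at 65.2% under LP1.

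Other class II genes mostly showed the same pattern. HLA-DQB1, the partner of HLA-DQA1, had 148 ± 7.32, 91.2 ± 2.68 and 0.19 ± 0.05 CPM under AMO1, H929 and LP1 (SD, n = 6), and HLA-DRB5, HLA-DQA2 and HLA-DQB2 were also below 1% of their AMO1 level under LP1. HLA-DRB5 and HLA-DQA2 resemble the members HLA-DRB1 and HLA-DQA1, so reads may be assigned unevenly between them and their levels are not separate observations. HLA-DOB, the beta chain of HLA-DO, did not follow. It had 5.90 ± 0.66, 4.80 ± 0.36 and 3.85 ± 0.52 CPM, and 144 to 230 counts in each LP1 library where HLA-DOA had 0 or 1. Its log2 difference between AMO1 and LP1 was 0.62 (standard error 0.09, adjusted p = 2.3e-07, edgeR). As counted, HLA-DOB (chr6:32812763-32820466, minus strand) begins upstream of the promoter stretch shown. Exon bases shared with other genes were checked for the members only. Whether the reads of HLA-DOB came from transcripts that start at that promoter was not tested.

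Over the 18 libraries, the genes most like CIITA by Pearson's correlation of log2 (CPM + 0.5) were HLA-DQB1 (r = 0.9994), LOXL4 (0.9993), HLA-DPB1 (0.9993), HLA-DPA1 (0.9992) and HLA-DOA (0.9992). Of the other members, HLA-DRB1 ranked 16, HLA-DRA 19, CD74 26, HLA-DMA 45, HLA-DQA1 48 and HLA-DMB 180 among 13852 genes, and HLA-DOB ranked 4177 (r = 0.79). The libraries of a line share their line, so these values describe the steps between lines, and 4.31% of all ranked genes had r of at least 0.99. With ranks (Spearman) in place of values, 1 member was among the 500 genes most like CIITA instead of 9.

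The genes that act on CIITA and its targets differed between the lines in varied directions. Of the 7 class II promoter factors, 3 were higher and 2 lower under AMO1 than LP1, near the 37.9% of all genes called in each direction. RFX5, which binds the X box, had 360 ± 7.16, 310 ± 7.99 and 178 ± 7.97 CPM under AMO1, H929 and LP1 (SD, n = 6), and RFXAP, its partner, 11.4 ± 0.99, 10.1 ± 0.50 and 3.75 ± 0.62. NFYB, a subunit of the Y box factor, had 21.2 ± 1.80, 20.5 ± 1.44 and 20.8 ± 1.72 CPM. CREB1 was also lower under LP1, at 45.2 ± 1.04 CPM against 91.6 ± 6.37 under AMO1. Transcripts of all 7 factors averaged 1 CPM or more under both gapmeR labels in every line, including LP1. Proteins were not measured, and the part of these factors in the members' levels was not tested.

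Of 13 regulators of CIITA, 1 was higher and 10 lower under AMO1 than LP1, where 37.9% of all genes were called in each direction. The list holds activators and repressors, so these counts have no single direction for CIITA. The 1 higher gene was EZH2, at 148 ± 9.76, 129 ± 7.28 and 75.4 ± 2.72 CPM under AMO1, H929 and LP1. The 10 lower genes include PAX5 and SPI1, which passed the filter only through LP1, so that their calls were favoured by it. PRDM1, the plasma cell repressor of CIITA, had 229 ± 13.5, 258 ± 12.5 and 769 ± 17.1 CPM under AMO1, H929 and LP1, a log2 difference of -1.75 between AMO1 and LP1 (edgeR, standard error 0.04, adjusted p = 3.3e-29). IRF1, which interferon gamma induces, had 49.4 ± 2.74, 34.7 ± 4.56 and 76.8 ± 4.47 CPM, so it was lower under AMO1 than LP1 and lowest under H929. Of the 4 interferon gamma receptor genes, 2 were higher and 2 lower. The receptor chain IFNGR2 had 75.7 ± 3.35, 62.4 ± 3.36 and 9.89 ± 1.03 CPM and the kinase JAK1 136 ± 3.76, 111 ± 2.89 and 81.4 ± 2.72, whereas IFNGR1 had 16.1 ± 0.87, 16.3 ± 1.81 and 24.0 ± 0.44 and JAK2 17.1 ± 1.5, 14.8 ± 1.23 and 22.8 ± 0.84. PAX5 and SPI1, which drive CIITA in B cells and myeloid cells, were near 0 under AMO1 and H929 and at 1.07 ± 0.18 and 0.63 ± 0.12 CPM under LP1.

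Peptide processing genes of the class II route were divided, with 3 of 8 higher and 3 lower under AMO1 than LP1, where 37.9% of all genes were called in each direction. The 3 lower include CTSL (cathepsin L), which had 0 counts under AMO1 and passed the filter only through the other lines. CTSS (cathepsin S), the protease that trims CD74, had 162 ± 7.25, 109 ± 10.9 and 8.00 ± 0.42 CPM, whereas CTSB (cathepsin B) had 102 ± 4.17, 79.6 ± 4.54 and 361 ± 40.9. Class I genes were higher under AMO1 than LP1 in 5 of 6 cases and lower in 1, with HLA-B at 960 ± 47.7, 735 ± 27.6 and 146 ± 6.83 CPM. The drop under LP1 was thus far smaller for HLA-B than for any member. Genes that lie among the class II genes but serve class I or other functions differed less, such as TAP1 at 203 ± 7.80, 167 ± 8.82 and 73.7 ± 3.88 CPM and BRD2 at 296 ± 13.7, 322 ± 9.12 and 349 ± 10.5. CIITA's neighbours on chromosome 16 did not share its step: 0 of 4 tested were higher and 3 were lower under AMO1 than LP1, among them DEXI (32.9 ± 1.695 against 50.8 ± 2.105 CPM). The T cell list also moved with the members, from 298 to 350 CPM summed under AMO1 and 170 to 207 under H929 to 10.5 to 16.7 under LP1. CD4 made up most of it (296 ± 23.6, 181 ± 14.0 and 0.05 ± 0.04 CPM). CD3E was at 21.9 ± 2.38, 8.50 ± 0.81 and 13.2 ± 1.81 CPM, higher under LP1 than H929, TRAC at 3.27 ± 0.27, 2.00 ± 0.36 and 0.86 ± 0.40, and CD8A at 2.47 ± 0.32, 2.49 ± 0.29 and 0, while CD3D and CD2 were at or near 0 throughout. The monocyte and dendritic cell list summed to 8.73 to 13.6, 1.54 to 2.46 and 4.50 to 10.997 CPM, with ITGAX at 9.59 ± 1.68, 1.46 ± 0.31 and 0.86 ± 0.19 and CSF1R at 0.08 ± 0.05, 0.03 ± 0.02 and 6.37 ± 2.37. Of its 6 tested genes, 3 were higher and 0 lower under AMO1 than H929 (21.2% and 23.2% of all genes), 1 higher and 1 lower under AMO1 than LP1, and 2 higher and 3 lower under H929 than LP1, with CLEC9A and CSF1R passing the filter only through other lines than H929. Plasma cell markers also differed between the lines, with 2 of 9 higher and 7 lower under AMO1 than LP1, among them SDC1 (10662 ± 879, 12927 ± 1222 and 1288 ± 91.9 CPM) and XBP1 (95.7 ± 5.94, 295 ± 6.04 and 1593 ± 67.2 CPM). The part of these lists in the members' levels was not tested.

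The study looked for genes that NEAT1 may regulate as a competing endogenous RNA, and for the members the comparison of gapmeR labels gave no call. With high NEAT1, 0 of 10 members passed an adjusted p of 0.05 in AMO1, where 2.06% of 22933 genes did (1.64% higher, 0.419% lower). The count was 0 of 10 in H929, where 5.47% of 23499 genes passed (3.7% higher, 1.77% lower), and 0 of 8 tested in LP1, where 1.43% of 23165 did (0.656% higher, 0.777% lower; edgeR). HLA-DMB and HLA-DOA had too few reads to be tested in LP1, and HLA-DPB1 and HLA-DQA1 passed the filter there with at most 19 and 13 counts in a library. The number of all genes called rested on single libraries: with 1 left out it ran from 254 (without gN1E replicate D) to 606 in AMO1, where 473 were called, from 701 (without gN1E replicate B) to 1272 in H929, where 1286 were, and from 87 (without SCR replicate B) to 780 (without SCR replicate D) in LP1, where 332 were. It also moved by over 1.5 times without SCR replicate D (261) or gN1E replicate C (288) in AMO1, without SCR replicate A (709) in H929 and without SCR replicate A (123) or gN1E replicates A (143), B (176) and D (202) in LP1. With library size only, the split of all genes called turned from 870 higher and 416 lower to 556 and 743 in H929 and from 152 and 180 to 229 and 130 in LP1, and went from 377 and 96 to 309 and 295 in AMO1. At an unadjusted p under 0.05 the counts were 0, 1 and 0 members against 2803, 4156 and 3018 of all genes tested, and limma-voom and DESeq2 also called 0 in each line. In AMO1, whose libraries pair by replicate letter, a fit with the letter as a block called 1394 genes in place of 473 and again 0 members.

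In the libraries with high NEAT1, CIITA had a log2 fold change of -0.03 in AMO1 (95% interval -0.16 to 0.09, adjusted p = 0.89), 0.02 in H929 (-0.07 to 0.12, adjusted p = 0.84) and -0.15 in LP1 (-0.38 to 0.07, adjusted p = 0.59; edgeR). These intervals leave room for a fall to 0.90 of the SCR level or a rise to 1.07 in AMO1, for 0.95 to 1.09 in H929 and for 0.77 to 1.05 in LP1. NEAT1 itself had log2 fold changes of 2.66, 2.74 and 2.14 in the same fits. The libraries of the gapmeR labels overlapped for CIITA in each line (two-sided exact permutation test, p = 0.6, 0.3 and 0.3, where 3 against 3 allow no p under 0.1).

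HLA-DRA came nearest to a separation in AMO1, where its 3 gN1E libraries lay above the 3 SCR libraries, which edgeR put at 0.08 on the log2 scale (95% interval -0.03 to 0.18, adjusted p = 0.60). It was the only member without overlap there, against 17.7% of all genes in either direction. HLA-DOA was the only such member in H929, where its gN1E libraries lay below the SCR libraries and 21.7% of genes did not overlap. Its log2 fold change was -0.12 (95% interval -0.23 to -0.0041), with an adjusted p of 0.26 in edgeR. No member separated in LP1, against 18.1% of all genes.

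CD74 was the least certain of the abundant members. Its log2 fold change was -0.10 in AMO1 (95% interval -0.37 to 0.16, adjusted p = 0.79) and 0.18 in H929 (-0.19 to 0.55, adjusted p = 0.62; edgeR). With the AMO1 libraries paired by letter it was -0.10 (-0.19 to -0.01, adjusted p = 0.18, edgeR with the replicate block), and CD74 was lower with gN1E in 3 of 3 pairs, as were HLA-DMA and HLA-DMB, while HLA-DRA was higher in 3 of 3. The H929 value turned on the SCR library of replicate B, which held 1651 CPM where the other two had 1353 and 1151: without it the log2 fold change was 0.32 and CD74 was called (adjusted p = 0.0019). For the remaining members, 95% intervals in AMO1 and H929 lay within -0.39 and 0.19 on the log2 scale.

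In LP1, 6 members had 10 reads or more in libraries of both labels, and their log2 fold changes were all negative, from -0.15 for CIITA to -0.53 for HLA-DRB1. HLA-DQA1 (-1.08) and HLA-DPB1 (-0.58) reached 10 reads only in libraries labelled SCR, with 13, 2 and 5 counts against 1, 4 and 2 for HLA-DQA1 and 19, 12 and 10 against 6, 6 and 9 for HLA-DPB1, so their sign is favoured by the filter. None was called, the smallest adjusted p was 0.57, and the intervals were wide, for example -1.11 to 0.19 for CD74 and -0.57 to 0.16 for HLA-DMA. Members share the libraries, so a common sign is not a set of independent observations. In AMO1 the median over the members was -0.02, as for all genes, and in H929 it was -0.04 against -0.01. In LP1 the median over all genes was -0.0012. No member median is given for LP1, because the filter favoured the sign of HLA-DQA1 and HLA-DPB1.

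**Figure D3:**
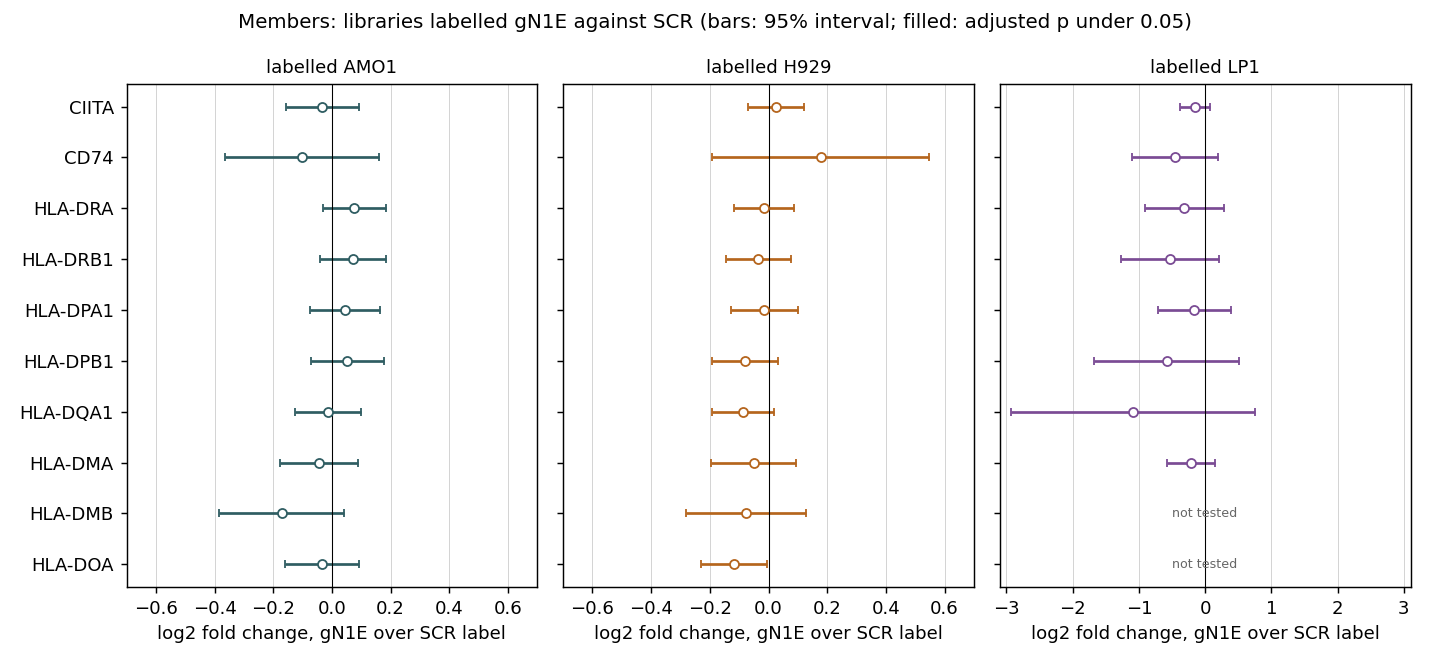
Log2 fold change of each member, libraries labelled gN1E over SCR, with 95% intervals from edgeR in the 3 lines and a wider scale for LP1. All symbols are open because no member passed an adjusted p of 0.05, and CIITA lies at -0.03, 0.02 and -0.15.

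A fit of all 18 libraries with the line as a covariate asked for a shift shared by the lines. It called 0 of 10 members against 5.96% of 26436 genes (3.54% higher, 2.42% lower), a split of 936 and 639 genes that turned to 788 and 852 with library size only and to 910 and 968 without a filter. The members had log2 fold changes from -0.13 (HLA-DMB) to 0.01 (HLA-DRA) and a median of -0.03 against -0.02 for all genes. CIITA had -0.04 (95% interval -0.12 to 0.04, adjusted p = 0.69, edgeR). The effect of the label on a member was not called as different between any pair of lines. Because libraries labelled H929 hold the V segments of AMO1, the line labels cannot be taken as independent in these fits. For HLA-DMB and HLA-DOA, which have 0 to 6 counts per LP1 library, a difference from LP1 could not be seen. Over the 10 members the tests gave a smallest adjusted p of 0.85 for AMO1 and H929, 0.33 for AMO1 and LP1 and 0.43 for H929 and LP1. At an unadjusted p under 0.05 there were 0, 1 and 2 of the 10 members, against 1771, 2820 and 2664 of 26436 genes. Over all genes, 0%, 0.741% and 0.874% were called in these interaction tests.

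Some genes that act on CIITA changed with the label in H929, where CIITA itself was not called. Of 11 tested regulators of CIITA, 2 fell and 0 rose, where 1.77% of all genes fell and 3.7% rose (with library size only more fell than rose, 743 against 556). IRF1, the interferon-induced activator of CIITA, fell from 38.3 ± 1.68 CPM (SCR) to 31.1 ± 3.25 (gN1E; SD, n = 3), or by 0.31 on the log2 scale (edgeR, standard error 0.07, adjusted p = 0.0033). SOCS1, an inhibitor of the same signal and a neighbour of CIITA, was low and fell from 1.21 ± 0.34 to 0.62 ± 0.24 CPM (-0.98, standard error 0.29, adjusted p = 0.047), a call that held in 2 of 6 fits with 1 library left out. The receptor chain IFNGR1 was the 1 of 4 interferon gamma receptor genes called, and it fell from 17.8 ± 1.05 to 14.8 ± 0.43 CPM (-0.29, standard error 0.07, adjusted p = 0.014). The other 3 interferon receptor and kinase genes did not pass the test.

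In AMO1, 0 of 10 tested regulators were called, and IRF1 was 51.0 ± 1.94 CPM with SCR and 47.7 ± 2.64 with gN1E. With the block, which the pairing in AMO1 warrants, 4 list genes were called there, namely NLRC5 (log2 fold change -0.23, adjusted p = 0.0018), CLEC16A (0.17, adjusted p = 0.049) and, of the marker lists, ITGAX (-0.38, adjusted p = 0.012) and JCHAIN (0.17, adjusted p = 0.0093). The same fit called 776 genes higher and 618 lower among all 22933 tested, so these calls alone say little about the lists. In LP1, 0 of 12 tested regulators were called, and IRF1 was 73.5 ± 1.62 CPM with SCR and 80.2 ± 3.65 with gN1E. The effect on IRF1 differed between H929 and LP1 (interaction -0.43 on the log2 scale, standard error 0.09, adjusted p = 0.0077, edgeR). For CIITA the same interaction was 0.21 (95% interval 0.02 to 0.41, adjusted p = 0.43).

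Among the genes that serve class II molecules after transcription, CTSS fell in H929 from 119 ± 0.98 to 99.5 ± 1.86 CPM (-0.27 on the log2 scale in edgeR, standard error 0.05, adjusted p = 2.5e-04). It was the 1 of 8 processing genes called there, where 1.77% of all genes fell. In LP1 the called gene, 1 of 8, was CTSD (cathepsin D), which fell from 101 ± 5.12 to 86.6 ± 1.55 CPM (-0.20, standard error 0.05, adjusted p = 0.048) and kept its call in 1 of 6 fits with 1 library left out. Of all genes, 0.777% fell in LP1. The class II promoter factors, the 5 other class II genes, the ubiquitin ligases MARCHF1 and MARCHF8, the costimulatory molecules and the region genes TAP1, TAP2, PSMB8, PSMB9 and BRD2 had 0 calls among the genes tested in each line. Over all genes, 2.06% were called in AMO1, 5.47% in H929 and 1.43% in LP1. NLRC5, the counterpart of CIITA for class I genes, fell in H929 (83.1 ± 1.26 to 74.8 ± 2.84 CPM, log2 fold change -0.16, standard error 0.05, adjusted p = 0.049) and rose in LP1 (33.3 ± 2.16 to 38.9 ± 1.65 CPM, 0.25, standard error 0.06, adjusted p = 0.042). Both NLRC5 calls were lost in each fit with 1 library left out.

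Of 4 tested neighbours of CIITA in H929, 2 rose and 1 fell, the latter SOCS1, against 3.7% and 1.77% of all genes. CLEC16A, which lies beyond DEXI, went from 52.1 ± 2.61 to 66.4 ± 0.99 CPM (0.34 on the log2 scale in edgeR, standard error 0.05, adjusted p = 7.8e-05). DEXI, which overlaps CIITA on the opposite strand, went from 27.2 ± 1.14 to 31.6 ± 1.23 CPM (0.20, standard error 0.06, adjusted p = 0.041), a call kept in 1 of 6 fits with 1 library left out. CIITA, in the same libraries, was 182 ± 2.31 CPM with SCR and 187 ± 5.89 with gN1E. CLEC16A, DEXI, SOCS1 and CTSS were also called in the fit over all lines, with log2 fold changes of 0.19, 0.14, -0.74 and -0.13.

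**Figure D4:**
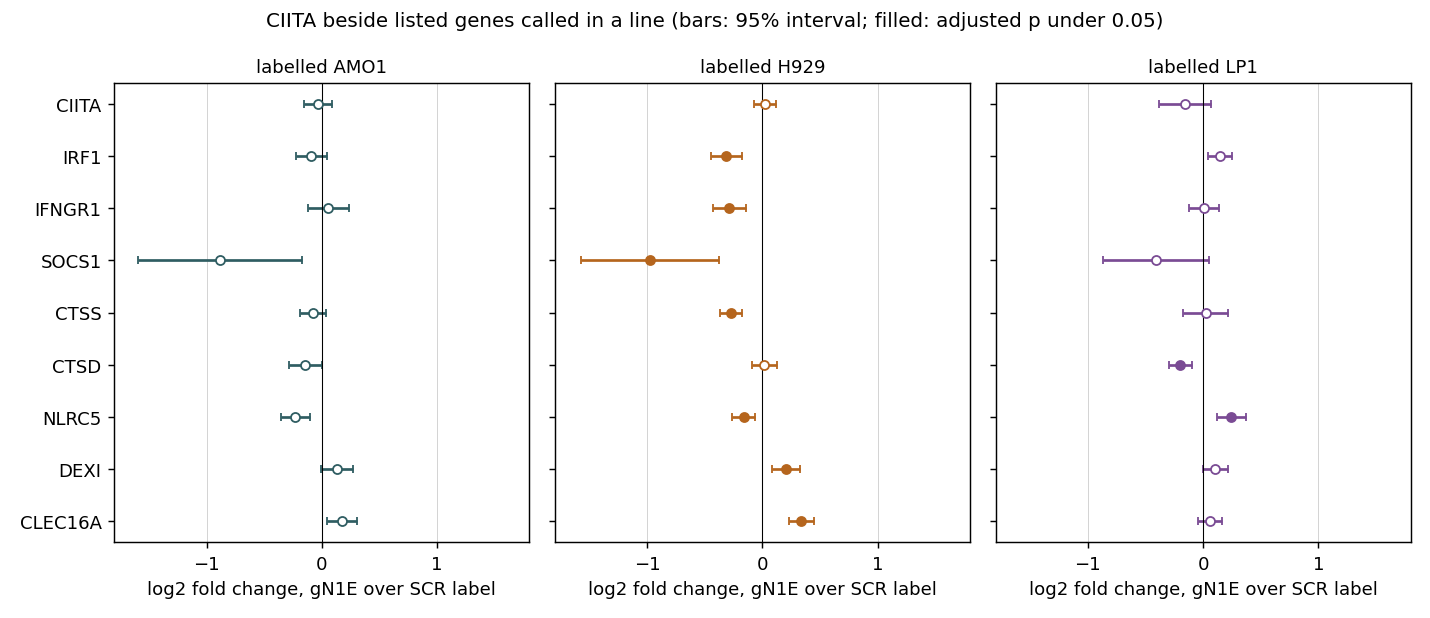
Log2 fold change of CIITA and of 8 genes of its pathway and neighbourhood, libraries labelled gN1E over SCR, with 95% intervals from edgeR; filled symbols passed an adjusted p of 0.05 in that line. In H929 IRF1 (-0.31), IFNGR1 (-0.29), SOCS1 (-0.98), CTSS (-0.27) and NLRC5 (-0.16) are filled below 0 and DEXI (0.20) and CLEC16A (0.34) above it, while CIITA (0.02) is open.

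Marker lists were read for the label in the same way. Of the 9 plasma cell markers, 2 were called in H929, against 5.47% of all genes: SDC1 rose (log2 fold change 0.22) and CD38 fell (-0.21). None was called in AMO1 or LP1 without the replicate block. B cell, monocyte and dendritic cell and T cell markers had 0 calls within a line in these fits. The replicate block in AMO1 called JCHAIN and ITGAX there, as given above. In the fit over all lines, where 2.42% of all genes fell, 2 of 6 tested genes of the monocyte and dendritic cell list fell, CSF1R (-0.78) and ITGAX (-0.38), and 1 of 4 of the T cell list, CD3E (-0.19).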

How the data were processed

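RNA-seq was analysed in 18 libraries labelled AMO1, H929 or LP1 and gN1E or SCR, 3 per group. Raw counts per gene were deposited. Per the file headers and the submitters' processing notes, read pairs were aligned to hg38 with STAR (2.7.10a) and assigned to GENCODE exons by strand with featureCounts (1.6.4), leaving out pairs that mapped to several places or to overlapping genes. HLA alleles that differ from the reference may be counted less completely. Each table lists 62703 genes, and 62686 of their identifiers were matched to the reference table of names. 0 columns were left unused.

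Groups came from the sample labels. edgeR 4.0.16 (R 4.3.3; TMM, robust quasi-likelihood test, Benjamini-Hochberg over every gene tested, threshold 0.05) was run on genes that reached 10 reads in 1 or more libraries of the fit. Each line was fitted alone, and all 18 libraries together for the additive, interaction and line contrasts. Intervals of 95% came from the standard error and the moderated degrees of freedom. CPM used TMM factors over the 18 libraries. Likeness to CIITA was ranked among genes with a symbol and a mean of at least 1 CPM. Total counts ran from 28061606 to 69937229 per library. The fits were tested on simulated data. The alternatives were limma-voom (limma 3.58.1), DESeq2 1.42.0, RLE factors, unscaled library sizes, no filter or filterByExpr, a block for the replicate letter, a joint fit, a threshold of 0.1 with at least 1.5-fold, and omission of single libraries. Python 3.11.15 was used with pandas 2.3.3, numpy 2.4.6, scipy 1.17.1 and, for plots, matplotlib 3.10.9.

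The members and gene lists were chosen with earlier results of these data known. Some list genes are not reported here. Besides the members and NEAT1, the text names genes of the lists that passed the threshold (at most 4 a list and comparison), those that set a level the text turns on, the 5 genes most like CIITA, and V segments as a check of the labels. Libraries with the same letter deviated together in AMO1 (correlations 0.223, 0.202 and 0.146 across 15432 genes), which pairs them, but not for each letter in H929 (-0.022, -0.050 and -0.117) or LP1 (0.191, -0.0016 and -0.056).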

Additional observations from a re-analysis of the deposited data

Results flagged for a closer look

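The effect of the gapmeR label differed between lines for 4 genes around the members, by edgeR's interaction test. NLRC5, the class I counterpart of CIITA, had a log2 difference of -0.45 between AMO1 and LP1 (standard error 0.08, adjusted p = 0.0020) and of -0.37 between H929 and LP1 (standard error 0.08, adjusted p = 0.012). Between H929 and LP1 the other 3 were IRF1 (-0.43, adjusted p = 0.0077), CD38 (-0.27, adjusted p = 0.044) and CLEC16A (0.31, adjusted p = 0.026). With 1 of the 18 libraries left out, the H929 against LP1 difference stayed called in all 18 fits for NLRC5 and IRF1, in 11 for CLEC16A and in 6 for CD38. No member was called in this way, and against LP1 no difference could be seen for HLA-DMB and HLA-DOA, which had 0 to 6 counts per library there. Groups of 3 libraries were not tested for a value far from the others. Between replicates of a group, the chi-square of the counts per degree of freedom ran from 6.25 to 39.8, and was highest for LP1 SCR replicates A and D (39.8) and H929 gN1E replicates A and C (36.3).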

How the results depend on the processing

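All 10 members kept the direction and the call of each line difference with limma-voom, DESeq2, RLE factors, library size only, no filter, filterByExpr, the libraries of either gapmeR label alone and each library left out. At an adjusted p of 0.1 with at least 1.5-fold, added after seeing the data, 7 of 10 were called between AMO1 and H929. The replicate block was not run on the line differences. No alternative other than leaving out 1 library called a member for the gapmeR label. In H929 the number of members called was 0 to 1 with 1 library left out, the 1 being CD74 without SCR replicate B. Signs of log2 fold changes near 0 turned, for CIITA in H929 with library size only (-0.021), and in the fit over all lines for CD74 with limma-voom (0.041), RLE factors (0.0042) or the replicate block (0.010), HLA-DRA with library size only (-0.030), HLA-DRB1 with DESeq2 (-0.0077), library size only (-0.039), no filter (-0.0059) or filterByExpr (-0.0021), and HLA-DPA1 with library size only (-0.033). With 1 library left out, values ranged in AMO1 from -0.076 to 0.031 for CIITA, -0.049 to 0.0091 for HLA-DQA1, -0.084 to 0.00097 for HLA-DMA and -0.060 to 0.011 for HLA-DOA, in H929 from -0.050 to 0.019 for HLA-DRA, -0.092 to 0.029 for HLA-DRB1, -0.064 to 0.048 for HLA-DPA1 and -0.12 to 0.055 for HLA-DMA, and over all lines from -0.067 to 0.048 for CD74, -0.0094 to 0.028 for HLA-DRA, -0.021 to 0.031 for HLA-DRB1, -0.013 to 0.035 for HLA-DPA1 and -0.042 to 0.0017 for HLA-DPB1. The replicate block changed the count of genes called from 473 to 1394 in AMO1, 1286 to 931 in H929 and 332 to 243 in LP1, left 0 members called in each line (CIITA -0.03, 0.02 and -0.15), and lost DEXI, NLRC5 and SOCS1 in H929 and CTSD and NLRC5 in LP1. Without a filter 808 genes were called in AMO1 and 700 in LP1, and at an adjusted p of 0.1 with at least 1.5-fold 176 in AMO1, 369 in H929 and 102 in LP1. The interaction tests called 0, 196 and 231 genes (AMO1 against H929, AMO1 against LP1, H929 against LP1), with DESeq2 5, 505 and 371, and without a filter 48 in the first and 368 in the last. With 1 library left out they called 5 in the first (without AMO1 SCR replicate C or gN1E replicate A), 122 in the second (without AMO1 SCR replicate D) and 140 to 153 in the last (without H929 gN1E replicate B, LP1 SCR replicate A or H929 SCR replicate A), the other counts lying within 1.5 times. Library size only moved the median log2 difference of all genes from 0.02 to 0.20 between AMO1 and LP1 and from 0.05 to 0.24 between H929 and LP1. Counts of 0 to 72 per LP1 library limit what could be seen there for members other than CIITA and HLA-DMA. Why these values moved was not tested.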
